A study of Mus musculus with 12 samples.

Results

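The 59 genes described here encode nuclear subunits of respiratory chain complexes I to IV. They were taken from a list of symbols, 35 for complex I, 4 for complex II, 9 for complex III and 11 for complex IV. The rule uses no measured value, but the list was chosen with earlier results of these data known. All 59 were found by symbol among the 43629 genes of the deposited count table, all had counts in every library, and all passed the filter on low counts. Ndufa4, first described as a complex I subunit, was placed with complex IV, where its protein is now known to belong.

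The respiratory chain sits in the inner mitochondrial membrane. Complexes I and II pass electrons from NADH and succinate to ubiquinone, complex III passes them on to cytochrome c, and complex IV hands them to oxygen. Complexes I, III and IV pump protons as they do so, and ATP synthase (complex V) uses the gradient. Complex II also works in the tricarboxylic acid cycle and is made wholly from nuclear genes, whereas complexes I, III and IV combine nuclear subunits with subunits encoded in mitochondrial DNA.

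RNA was sequenced from mouse splenic B cells sorted by flow cytometry, with 4 libraries in each of 3 groups. Zfp36l1-deficient marginal zone (MZ) B cells carried Zfp36l1fl/flERT2cre/+ (replicates 1, 2, 7 and 8), control MZ B cells carried ERT2cre/ERT2cre (replicates 3, 4, 5 and 6), and follicular (FO) B cells carried Zfp36l1fl/fl without cre (replicates 3, 4, 7 and 8). All libraries have the strain label Zfp36l1tm1.1Tnr, the name of the floxed allele, although the control MZ genotype names no floxed allele. The 2 MZ groups thus differ both in floxed alleles and in how many copies of ERT2cre, a cre that acts once tamoxifen is given, they carry. The labels state no tamoxifen dose, age or sex. Both gates are labelled positive for B220 and CD93, with high CD21 and no CD23 for MZ cells and with CD21 and CD23 for FO cells. Whether replicates came from separate animals is not stated, so p-values measure sample-to-sample spread that may be technical. MZ libraries were made with a SMARTer low-input kit and read as pairs, and FO libraries, per the design text, with a stranded TruSeq kit and read as single ends. The extraction protocol names the SMARTer kit for all samples.

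Libraries held 28938453 to 40664963 counts. Levels are given as CPM, counts over the TMM-scaled library total, from a scaling over the 12 libraries. Zfp36l1, the RNA-binding protein gene targeted in the deficient mice, had 21.98, 31.8, 28.1 and 37.5 CPM in deficient MZ libraries, 116, 109.6, 118 and 126 in control MZ libraries and 369.5, 396, 352 and 361 in FO libraries. Cr2, the gene of CD21, ran from 3177 to 3678 CPM in deficient MZ cells, 3853 to 4429 in control MZ cells and 1138 to 1529 in FO cells. Fcer2a, the gene of CD23, ran from 88.1 to 164 CPM in deficient MZ, 69.6 to 169.9 in control MZ and 1145 to 1418 in FO cells. Of the 8 T cell genes, Cd3d, Cd3e, Cd3g, Cd4 and Trac stayed at or below 0.411 CPM in every library. Cd8a reached 3.16 CPM in deficient MZ, 0.593 in control MZ and 0.411 in FO libraries, Tcf7 1.84 in deficient MZ, 0.255 in control MZ and 0.722 in FO libraries, and Lck ran from 36.3 to 47.5 CPM over all libraries. Of the deficient libraries, replicate 1 stood apart for the respiratory chain genes, as described with the results.

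To compare levels between subunits, CPM were divided by exon length in kilobases (CPM per kb). In control MZ cells, complex IV genes had the highest levels per length, with Cox4i1, the largest nuclear complex IV subunit, at 317 CPM per kb in deficient MZ cells, 275 in control MZ cells and 238 in FO cells. Cox8a, a small complex IV subunit, followed with 274 CPM per kb in deficient MZ, 232 in control MZ and 147 in FO cells. In FO cells the order differed, and Uqcrh, the hinge protein gene of complex III, had the highest level at 339 CPM per kb, against 164 in deficient and 147 in control MZ cells. The flavoprotein gene of complex II, Sdha, had 127 CPM per kb in deficient MZ, 141 in control MZ and 97.6 in FO cells. Its membrane anchor partner Sdhc had 19.7 in deficient MZ, 21.3 in control MZ and 17.3 in FO cells. These are levels over all annotated exons, so a gene with a long annotated 3′ end, such as Sdhc, reads low per length.

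The comparison of deficient with control MZ cells asks how the mRNA of the chain differs where Zfp36l1 is lost. The number of ERT2cre copies differs along with the floxed alleles, and their parts cannot be told apart. Of the 59 genes, 3 were higher in deficient MZ cells, 0 were lower and 56 were not called (edgeR quasi-likelihood test, Benjamini-Hochberg adjusted p under 0.05). Those called, 5.08% of the members, stand against 3.76% of all 13987 genes tested, of which 2.3% were higher and 1.46% lower. The called genes were Cox7a2 and Uqcrq, for small subunits of complexes IV and III, and Ndufs5, for an accessory subunit of complex I. Across the members the fold changes leaned one way: 53 of 59 had a positive log2 fold change and 6 a negative one, with a median of 0.20, while 49.2% of all genes tested were positive and their median was −0.0037. By unadjusted p, 27 members were under 0.05, of which 26 were higher in deficient cells and 1 (Sdha) was lower. How many of all genes tested fell under 0.05 by unadjusted p was not computed, so this count cannot show an excess.

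Cox7a2 encodes a small complex IV subunit, the isoform used outside heart and skeletal muscle. It had 95.8, 70.7, 67.5 and 73.9 CPM in deficient MZ libraries 1, 2, 7 and 8, against 52.3, 51.2, 60.9 and 43.2 in control MZ libraries 3, 4, 5 and 6. Every deficient library was above every control library, and deficient replicate 1 was the highest (log2 fold change 0.56, SE 0.11; edgeR, adjusted p = 0.0142). The gene lies at chr9:79755361-79759878 on the minus strand (GRCm38).

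Uqcrq encodes the ubiquinone-binding protein QP-C, a small subunit of complex III. Its level was 93.7, 59.6, 51.9 and 75.04 CPM in deficient MZ libraries, against 44.01, 45.1, 51.5 and 38.1 in control MZ libraries. The groups did not overlap, although deficient replicate 7 exceeded control replicate 5 by under 1 CPM (log2 fold change 0.64, SE 0.15; edgeR, adjusted p = 0.0368). The gene lies at chr11:53427922-53430831 on the minus strand.

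Ndufs5 encodes an accessory subunit on the intermembrane side of complex I. It reached 33.5, 23.8, 23.5 and 27.6 CPM in deficient MZ libraries, against 19.6, 19.2, 21.9 and 16.9 in control MZ libraries. Here too every deficient library was above every control library (log2 fold change 0.47, SE 0.12; edgeR, adjusted p = 0.0404). Of its transcript bases, 46.9% are also found, at 95% identity or more, in the near copy BC002163, so how its reads were shared is uncertain. The gene lies at chr4:123712710-123718202 on the minus strand.

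**Figure D1:**
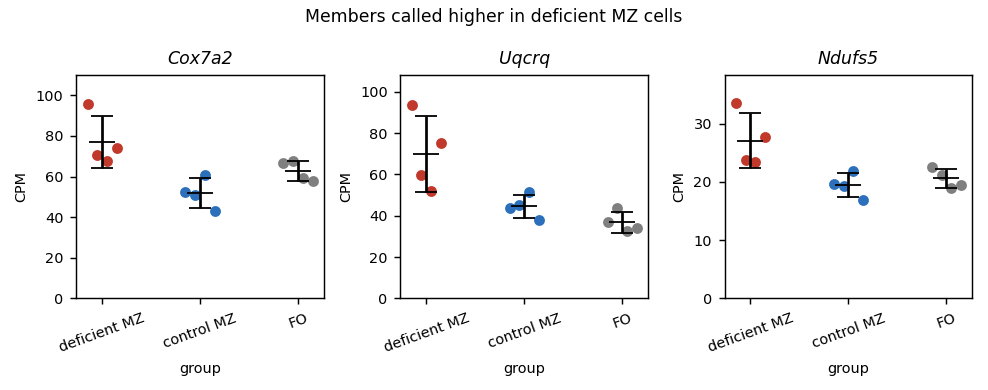
Levels (CPM, vertical axis) of the 3 members called higher in deficient MZ cells, by group (horizontal axis), with 1 point per library and the mean and SD of 4 libraries as bars. In deficient MZ cells all 4 points lie above all 4 control MZ points for each gene, and the point furthest left among the deficient libraries is replicate 1.

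Groups also did not overlap for Ndufa10 and Cox7c, so that 5 members were higher and 0 lower in every deficient library, against 6.31% and 5.58% of all genes tested. Ndufa10, an accessory complex I subunit named here after its values were seen, had 104, 93.1, 89.4 and 91.98 CPM in deficient MZ libraries and 83.96, 86.4, 87.2 and 79.4 in control MZ libraries (log2 fold change 0.16, SE 0.068; edgeR, adjusted p = 0.226). Cox7c, a small complex IV subunit, had 82.9, 66.2, 64.6 and 69.9 CPM in deficient MZ libraries against 64.2, 60.8, 63.98 and 53.9 in control MZ libraries (log2 fold change 0.21, SE 0.087; edgeR, adjusted p = 0.201). Neither was called.

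The call of Cox7a2 held when any single library was left out. Those of Uqcrq and Ndufs5 were lost without control replicate 3, 4 or 6 or without deficient replicate 8, which left 1 called member, and that of Ndufs5 also without deficient replicate 1 and that of Uqcrq with no filter on low counts. Without deficient replicate 7, Ndufb7 and Cox7b joined them and 5 members were called. In the authors' deposited table these genes were called higher, 5 in all, and 0 members lower: Cox7a2 (log2 0.47), Uqcrq (log2 0.50), Ndufs5 (log2 0.40), Cox7b (log2 0.31) and Ndufb7 (log2 0.27).

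Among the 35 complex I genes, 31 had a positive log2 fold change and the median was 0.18. After Ndufs5, the accessory subunit gene Ndufb7 had the smallest p, with 67.6, 53.96, 48.9 and 58.1 CPM in deficient MZ libraries against 43.98, 49.4, 47.4 and 42.7 in control MZ libraries (log2 fold change 0.31, SE 0.094; edgeR, adjusted p = 0.0869). The deficient values all but cleared the control values, and the lowest deficient library, replicate 7, fell just under control replicate 4. Ndufb4 (0.34, SE 0.11), Ndufb6 (0.41, SE 0.15), Ndufc1 (0.32, SE 0.13) and Ndufc2 (0.25, SE 0.11), all of the membrane arm, lay in the same range, as did the peripheral arm subunit Ndufs4 (0.28, SE 0.10). Ndufa8 (0.23, SE 0.087) and the mitochondrial acyl carrier protein gene Ndufab1 (0.21, SE 0.079) were closer to the member median. These values are log2 fold changes, and none of these 8 genes passed the test, with edgeR adjusted p from 0.0869 to 0.222. Of the bases of Ndufb6, 39.00% lie under exons of the other strand, and the counting's strand setting is not known from the sources used here.

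The complex II genes stayed closest to 0. These 4 genes had a median log2 fold change of −0.022, 2 positive and 2 negative, and 0 were called. Sdha, the flavoprotein that oxidises succinate, had 363, 384, 367 and 365 CPM in deficient MZ libraries against 378, 385, 452 and 418 in control MZ libraries. All but deficient replicate 2 were below the lowest control library (log2 fold change −0.15, SE 0.068; edgeR, adjusted p = 0.244). The iron-sulphur subunit gene Sdhb averaged 131 ± 14.5 CPM in deficient and 116 ± 10.2 in control MZ cells (SD, n = 4 each; log2 fold change 0.16, SE 0.084; edgeR, adjusted p = 0.301). The membrane anchor genes Sdhc (log2 −0.12, SE 0.087) and Sdhd (log2 0.078, SE 0.075) moved little relative to their spread (edgeR adjusted p = 0.482 and 0.621).

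All 9 complex III genes had a positive log2 fold change, with a median of 0.22. Beside Uqcrq, the small subunit gene Uqcr11 averaged 38.5 ± 6.4 CPM in deficient and 30.5 ± 3.03 in control MZ cells (log2 fold change 0.33, SE 0.11; edgeR, adjusted p = 0.12). Cyc1, the cytochrome c1 gene, had 157, 132, 120.4 and 148 CPM in deficient against 114, 110.1, 123 and 124 in control MZ libraries (log2 fold change 0.23, SE 0.082; edgeR, adjusted p = 0.139), so that deficient replicate 7 lay within the control range. Uqcrfs1, the Rieske iron-sulphur protein, averaged 102 ± 8.74 CPM in deficient and 96.6 ± 9.16 in control MZ cells (log2 fold change 0.063, SE 0.080; edgeR, adjusted p = 0.713).

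All 11 complex IV genes were positive as well, with a median of 0.25. Of these, 9 had an unadjusted p under 0.05, again without a share of all genes to set beside it. After Cox7a2, the small subunit gene Cox7b had 92.1, 67.9, 60.6 and 70.8 CPM in deficient MZ libraries against 57.99, 55.2, 62.6 and 49.7 in control MZ libraries (log2 fold change 0.36, SE 0.11; edgeR, adjusted p = 0.0892). Deficient replicate 7 lay below control replicate 5 and the other deficient libraries above it. Cox6a1 (0.28, SE 0.11), Cox5a (0.25, SE 0.10), Cox5b (0.21, SE 0.081), Cox6c (0.25, SE 0.11), Ndufa4 (0.29, SE 0.12) and Cox4i1 (0.19, SE 0.099) had log2 fold changes in a narrow band and were not called (edgeR adjusted p = 0.17 to 0.304). The calls by complex were 1 of 35 for complex I, 0 of 4 for complex II, 1 of 9 for complex III and 1 of 11 for complex IV. Of all genes tested, 3.76% were called.

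The lean towards higher levels was uneven across libraries. Relative to the control MZ mean, the median member in deficient replicate 1 was 0.45 higher on the log2 scale, against 0.12, 0.030 and 0.16 in deficient replicates 2, 7 and 8. Replicate 1 was the highest of its group for 56 of 59 members, and replicate 7 the lowest for 52. The control MZ libraries varied too, from −0.11 in replicate 6 to 0.15 in replicate 5, which was the highest of its group for 51 members. Control replicate 5 was thus above deficient replicates 2 and 7 in the median member. Without deficient replicate 1, the median log2 fold change of the members was 0.094, with 49 positive and 10 negative, and 2 members (Cox7a2 and Uqcrq) were called.

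**Figure D2:**
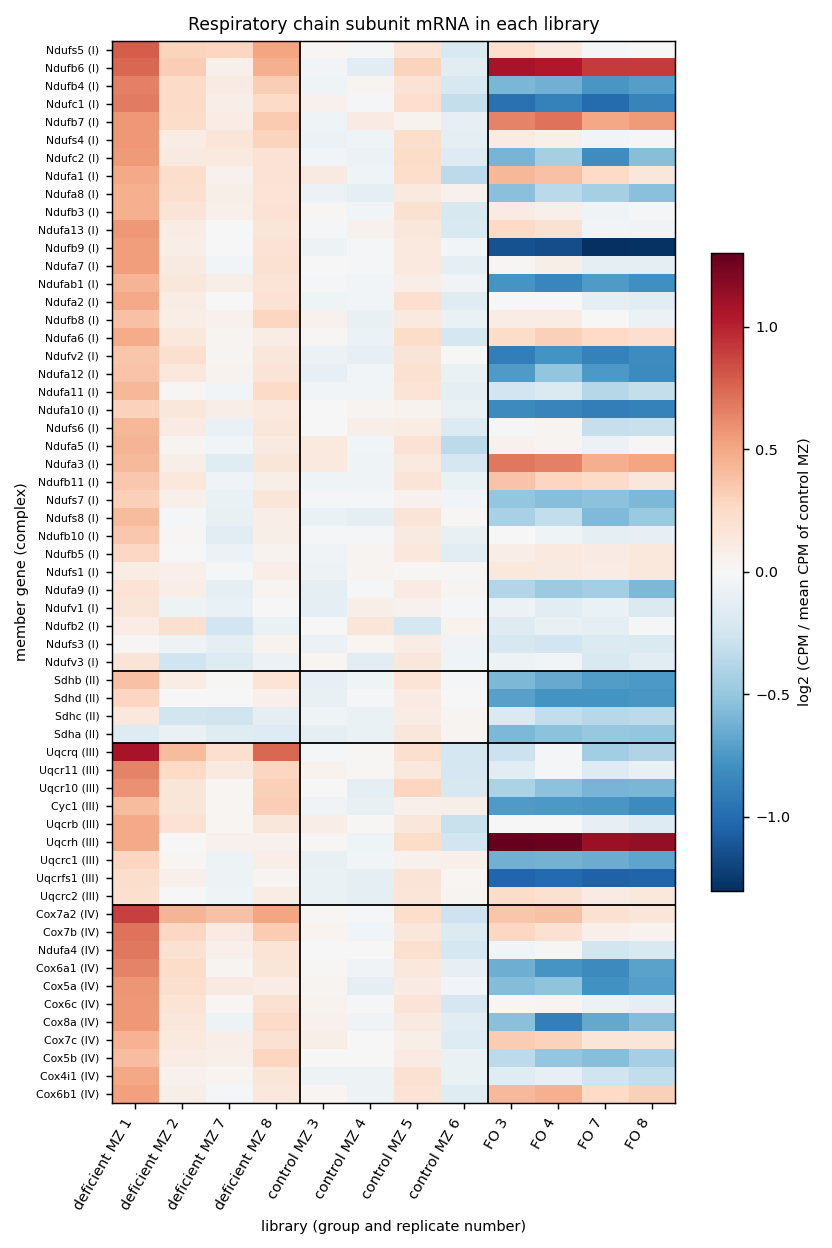
Level of each member (rows, grouped by complex and ordered by the deficient MZ against control MZ fold change) in each library (columns), as log2 of CPM over the mean CPM of control MZ libraries; red is higher and blue lower. Deficient replicate 1 is red for nearly every gene outside Sdha, the other deficient libraries are paler, and FO libraries show genes on both sides, from Uqcrh in red to Ndufb9 in blue.

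Summed over the members of a complex, the same library pattern appeared. The summed level of complex I was 2390, 1946, 1812 and 2020 CPM in deficient MZ libraries, against 1784, 1802, 2000 and 1720 in control MZ libraries. The ranges overlapped, since control replicate 5 exceeded deficient replicates 2 and 7. Complex III summed to 941 ± 118 CPM in deficient and 831 ± 55.8 in control MZ cells (SD, n = 4 each), and complex IV to 1215 ± 203 in deficient and 1011 ± 88.9 in control MZ cells. Complex II summed to 675 ± 29.6 CPM in deficient and 697 ± 53.3 in control MZ cells. In FO cells the sums were 1620 ± 63.5 CPM for complex I, 473 ± 0.619 for complex II, 748 ± 31.9 for complex III and 902 ± 48.2 for complex IV. In such bulk samples, fewer cells of a type and less RNA per cell cannot be told apart.

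**Figure D3:**
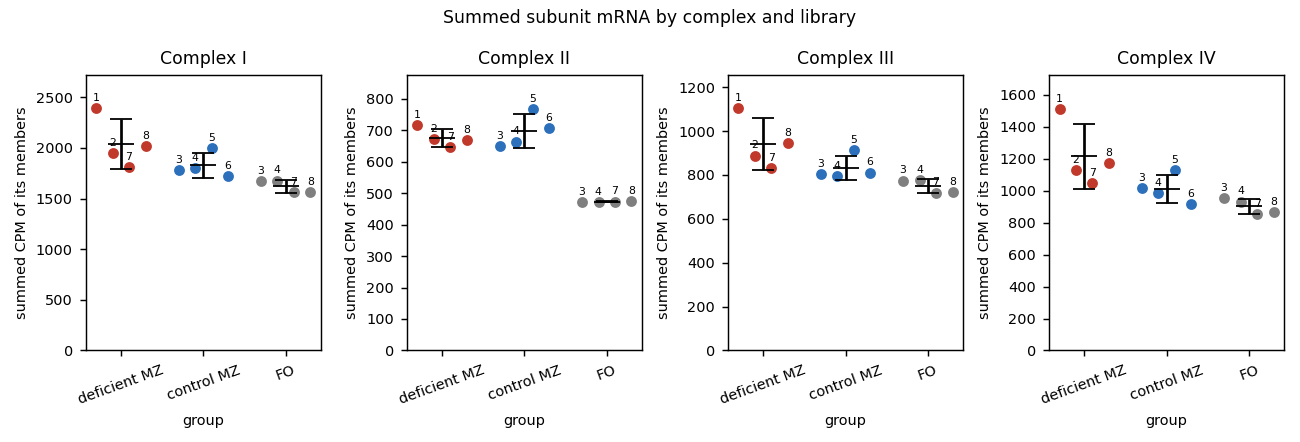
Summed level (CPM, vertical axis, from 0) of the members of each complex in each library, by group, with replicate numbers beside the points and the mean and SD of 4 libraries as bars. Deficient replicate 1 is the highest point for complexes I, III and IV, control replicate 5 for complex II, and for complex II all 4 FO points lie near 473 CPM, below every MZ library.

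Most members are short genes, and transcript length went along with the shift. Their exons span a median of 983 bases, against 2902 for all genes tested, and 30 of 59 are under 1000 bases. In deficient against control MZ cells, the 1677 tested genes under 1000 bases had a median log2 fold change of 0.10, and the 12209 longer ones −0.013. The 30 short members had a median of 0.22 and the 29 longer members 0.16, so both exceeded the median of genes in their length class. The longer class reaches 123179 bases and the members at most 4387, so this split does not match them for length. In deficient replicate 1, genes under 1000 bases were 0.12 above the control MZ mean in the median on the log2 scale, against 0.044, 0.017 and 0.090 in deficient replicates 2, 7 and 8. With offsets that remove the length trend in each library, the members' median was 0.12 and the same 3 genes were called. The part of length in the members' fold changes was not tested beyond these values.

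Zfp36l1 binds AU-rich elements in 3′ untranslated regions (UTRs) and speeds the decay of the mRNAs that carry them, and TATTTAT is the DNA form of its preferred heptamer. The members have short 3′ UTRs, with a median of 203 bases against 1134 for all genes tested with a UTR. The heptamer was found in 6 of 59 members (10.2%), against 29.2% of 11417 tested genes with an annotated 3′ UTR. Per kilobase of 3′ UTR the members held 0.319 sites and the genes tested 0.282. A site of each of these 6 members is given to show the motif in its context, with 11 bases on each side and the heptamer in capitals, as DNA in the sense direction, from the GENCODE annotation (GRCm38).
Cox7a2: ttggggatcaaTATTTATtgatgtgtatt
Ndufs4: cagctgtgcacTATTTATagtccatggat
Ndufb8: agcattgtccgTATTTATgaaataaggga
Ndufv2: ttctttagctaTATTTATttattttgata
Sdhc: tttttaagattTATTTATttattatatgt
Uqcrc2: cagtcagcaagTATTTATtaaatgcttta
Of these 6 genes, Cox7a2 was the 1 that was called, and its heptamer starts at base 93 of a 186-base 3′ UTR. Ndufs4 (log2 0.28, SE 0.10), Ndufb8 (log2 0.20, SE 0.089), Ndufv2 (log2 0.18, SE 0.080), Uqcrc2 (log2 0.057, SE 0.076) and Sdhc (log2 −0.12, SE 0.087) were not called (edgeR adjusted p from 0.156 to 0.731). Uqcrq and Ndufs5 hold no TATTTAT in their annotated 3′ UTRs. A match is a description of the letters and does not show binding.

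Other genes of oxidative metabolism were counted as well, in a comparison where 2.3% of all genes tested were higher and 1.46% lower. Of 16 complex V genes, 1 was higher and 0 lower (median log2 0.22), namely Usmg5, a small membrane subunit of ATP synthase, with 49.8 ± 9.14 CPM in deficient and 33.5 ± 5.55 in control MZ cells (log2 fold change 0.56, SE 0.13; edgeR, adjusted p = 0.0278). Of 4 tested chain subunits outside the member list, 1 was higher, the electron carrier cytochrome c gene Cycs, at 78.4 ± 12.6 CPM in deficient and 54.00 ± 4.72 in control MZ cells (log2 fold change 0.53, SE 0.10; edgeR, adjusted p = 0.0106). All 12 tested genes of the mitochondrial genome had a negative log2 fold change (median −0.094) and 0 were called. In the tricarboxylic acid cycle, 2 of 16 genes were higher and 0 lower, Suclg1 for succinyl-CoA ligase (log2 fold change 0.44, SE 0.075; edgeR, adjusted p = 0.00533) and Mdh2 for malate dehydrogenase (log2 fold change 0.38, SE 0.079; edgeR, adjusted p = 0.0158). Among 20 regulators of mitochondrial biogenesis 1 was higher, the growth regulator Myc, with 420.5 ± 67.98 CPM in deficient and 257 ± 37.7 in control MZ cells (log2 fold change 0.70, SE 0.11; edgeR, adjusted p = 0.00311).

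Of 46 tested assembly factors of complexes I to IV, 1 was higher and 0 lower (median log2 0.037). Lyrm7, a chaperone that hands the Rieske protein Uqcrfs1 to complex III, had 14.8, 9.24, 8.76 and 15.2 CPM in deficient MZ libraries, against 2.97, 3.32, 3.37 and 3.08 in control MZ libraries and 10.2, 13.5, 9.17 and 10.3 in FO libraries. The deficient libraries were all above the control libraries and lay around the FO range (log2 1.90, SE 0.19; edgeR, adjusted p = 7.46e-05), while its client gene Uqcrfs1 had the log2 fold change of 0.063 given above. The 54 cytoplasmic ribosomal protein genes, which are short as well, had 1 call (Rpl5, log2 fold change 0.45, SE 0.095; edgeR, adjusted p = 0.0163) and 52 positive fold changes, with a median of 0.15. Their sum was 26947, 21124, 19966 and 21559 CPM in deficient MZ libraries, the highest in replicate 1, against 18599 to 22590 in control MZ libraries.

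Markers of other cells were low beside the B cell markers, which summed to 18669 to 20319 CPM in deficient and 17960 to 18814 in control MZ libraries. The 7 erythroid genes summed to 7.56 to 25.2 CPM in deficient and 1.61 to 11.3 in control MZ libraries, highest in deficient replicate 1, and of 6 tested 1 (Hbb-bt) was higher and 0 lower. T cell genes summed to 39.8 to 45.7 CPM in deficient and 37.2 to 48.4 in control MZ libraries, nearly all of it Lck, and of 3 tested 2 (Cd8a and Tcf7) were higher. Of 8 macrophage and monocyte genes 1 (Adgre1) was higher, and they summed to 29.1 to 38.3 CPM in deficient and 27.01 to 32.3 in control MZ libraries. Plasma cell genes summed to 313 to 355 CPM in deficient and 379 to 397 in control MZ libraries, with 1 of 5 lower (Irf4). Most of this sum was Xbp1 (median 200 CPM in deficient and 201 in control MZ) and Irf4 (123 and 174). Prdm1 had medians of 7.96 CPM in deficient and 10.5 in control MZ, Sdc1 0.739 and 0.760, and Jchain 2.64 and 1.29. Platelet genes summed to 7.85 to 15.95 CPM in deficient and 11.8 to 18.7 in control MZ libraries with 0 called. The part of these cells in the members' levels was not tested.

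Control MZ and FO cells were compared to ask how the chain differs between the B cell subsets. Of the 59 genes, 29 were higher in control MZ cells, 12 were lower and 18 were not called, or 49.2% higher and 20.3% lower. Among 13843 genes tested 81.3% were called, 42.6% higher and 38.7% lower, so that a call as such is common in this comparison. The median log2 fold change was 0.14 for the members and 0.055 for all genes. Groups did not overlap for 27 members that were higher and 7 that were lower, against 39.7% and 37.2% of all genes. The floxed allele and the cre genotype differ along with the cell type, as do the kit and the read layout per the design text, and their parts cannot be told apart. With offsets for transcript length, the split became 27 higher and 24 lower (median 0.093). In the authors' deposited table, 29 members were higher and 12 lower.

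**Figure D4:**
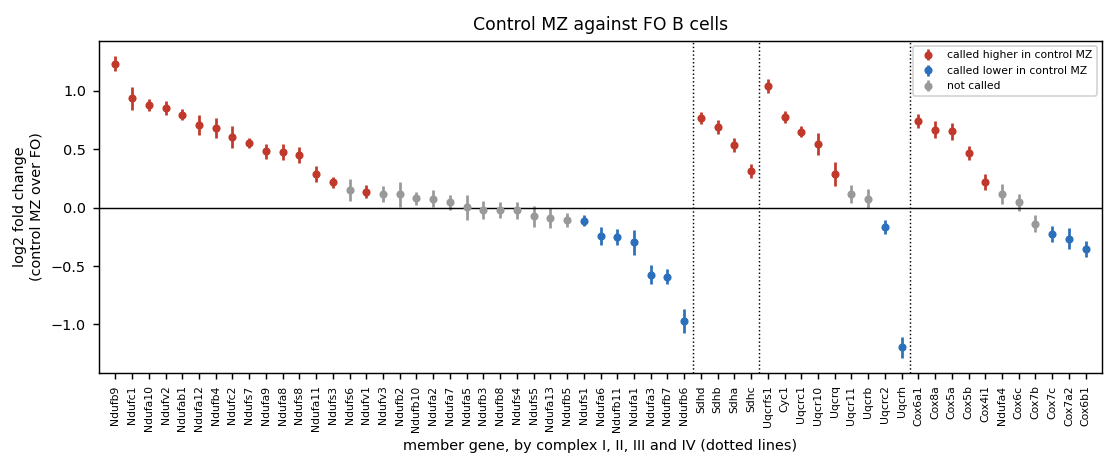
Log2 fold change of control MZ over FO cells (vertical axis) for each member (horizontal axis, by complex and then by size), as edgeR estimates with SE. All 4 complex II genes lie above 0, while complexes I, III and IV hold genes on both sides, with Ndufb9 at the top (1.23) and Uqcrh at the bottom (−1.20).

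Within complex I, 15 genes were higher in control MZ cells, 7 lower and 13 not called. This is 42.9% higher and 20% lower, against 42.6% and 38.7% of all genes tested. Ndufb9, an accessory subunit of the membrane arm, differed most, with 60.2, 61.8, 68.6 and 61.3 CPM in control MZ libraries against 28.7, 28.4, 24.9 and 25.9 in FO libraries (log2 fold change 1.23, SE 0.066; edgeR, adjusted p = 1.3e-09). Its control MZ values were all above every FO value. Of the exon bases of Ndufb9, 19.5% lie under exons of other genes on the same strand, and the counting mode is not known. Ndufc1 (0.94, SE 0.10), Ndufa10 (0.88, SE 0.050), Ndufv2, an iron-sulphur subunit of the NADH-oxidising module (0.85, SE 0.061), Ndufab1 (0.80, SE 0.051) and Ndufa12 (0.71, SE 0.086) were also higher on the log2 scale (edgeR adjusted p at most 4.39e-06).

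Ndufb6, another membrane arm subunit, was lower, with 9.76, 9.02, 12.2 and 9.02 CPM in control MZ libraries against 20.99, 20.6, 18.8 and 18.7 in FO libraries (log2 fold change −0.97, SE 0.10; edgeR, adjusted p = 1.41e-06). No control value reached the FO range. This is the gene with much of its exon sequence under the other strand, as given above. Ndufb7 had 43.98, 49.4, 47.4 and 42.7 CPM in control MZ libraries against 71.6, 74.6, 64.9 and 67.2 in FO libraries (log2 fold change −0.59, SE 0.065; edgeR, adjusted p = 1.8e-06), again with no overlap. Ndufa3 (−0.57, SE 0.080), Ndufa1 (−0.30, SE 0.11), Ndufb11 (−0.25, SE 0.065) and Ndufa6 (−0.25, SE 0.078) were lower by less on the log2 scale (edgeR adjusted p at most 0.0236). The call of Ndufa1 was lost without FO replicate 3 or control replicate 4 or 6, and with offsets for transcript length its log2 fold change was −0.0045.

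All 4 complex II genes were higher in control MZ cells, against 42.6% of all genes tested. Sdhd averaged 105 ± 6.13 CPM in control MZ and 62.2 ± 1.45 in FO cells (log2 fold change 0.77, SE 0.050; edgeR, adjusted p = 1.01e-08), and Sdhb 116 ± 10.2 in control MZ and 72.6 ± 3.77 in FO cells (log2 fold change 0.69, SE 0.063; edgeR, adjusted p = 2.68e-07). For the flavoprotein gene Sdha, control MZ libraries held 378, 385, 452 and 418 CPM and FO libraries 272, 283, 289 and 289 (log2 fold change 0.54, SE 0.058; edgeR, adjusted p = 1.38e-06), and Sdhc differed least (log2 fold change 0.31, SE 0.058; edgeR, adjusted p = 0.000205). In none of the 4 genes did the groups overlap.

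In complex III, 5 genes were higher, 2 lower and 2 not called. This is 55.6% higher and 22.2% lower, against 42.6% and 38.7% of all genes tested. The Rieske protein gene Uqcrfs1 had 90.98, 88.2, 109 and 98.7 CPM in control MZ libraries against 47.4, 48.1, 46.5 and 46.97 in FO libraries (log2 fold change 1.04, SE 0.062; edgeR, adjusted p = 3.33e-09). Cyc1, the other nuclear subunit that carries electrons, averaged 118 ± 6.88 CPM in control MZ and 69.3 ± 1.89 in FO cells (log2 fold change 0.78, SE 0.051; edgeR, adjusted p = 1.03e-08). Uqcrh, the hinge protein that helps cytochrome c1 and cytochrome c to interact, had 81.4, 77.2, 94.98 and 67.6 CPM in control MZ libraries against 197, 194, 174 and 177 in FO libraries (log2 fold change −1.20, SE 0.087; edgeR, adjusted p = 6.22e-08). Its FO values were all above its highest control MZ value.

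In complex IV, 5 genes were higher, 3 lower and 3 not called. This is 45.5% higher and 27.3% lower, against 42.6% and 38.7% of all genes tested. Cox6a1, the isoform used outside muscle, had 119, 114, 129 and 109 CPM in control MZ libraries against 76.01, 69.1, 66.1 and 72.5 in FO libraries (log2 fold change 0.74, SE 0.061; edgeR, adjusted p = 1.02e-07). The genes lower in control MZ cells were Cox6b1 (−0.35, SE 0.070), Cox7a2 (−0.27, SE 0.091) and Cox7c (−0.23, SE 0.068), all small accessory subunits, with edgeR adjusted p at most 0.0167. For Cox7a2 the control MZ libraries overlapped FO cells, at 52.3, 51.2, 60.9 and 43.2 CPM in control MZ against 66.8, 67.4, 59.5 and 57.8 in FO libraries. Cox4i1 was called higher (log2 fold change 0.22, SE 0.068; edgeR, adjusted p = 0.00939), but with offsets for transcript length its log2 fold change was −0.017 and the call was lost, as it was with all 12 libraries in 1 fit and with a replicate block. Ndufa4 was not called (log2 fold change 0.12, SE 0.086; edgeR, adjusted p = 0.208).

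Subunits encoded in the mitochondrion, which assemble with the nuclear ones, were mostly lower in control MZ cells. Of 12 tested, 1 was higher and 11 lower in control MZ cells, with a median log2 fold change of −1.47. The catalytic complex IV subunit gene mt-Co1 averaged 5164 ± 523 CPM in control MZ and 16450 ± 761 in FO cells (log2 fold change −1.66, SE 0.083; edgeR, adjusted p = 6.66e-10), and mt-Nd2 of complex I averaged 462 ± 56.1 in control MZ and 2236 ± 115 in FO cells. The lowest fold change was that of mt-Atp8, a complex V gene, with 26.6 ± 2.75 CPM in control MZ and 441 ± 11.5 in FO cells (log2 fold change −4.04, SE 0.073; edgeR, adjusted p = 6.38e-14). The gene that was higher, mt-Nd6, is the only protein-coding gene on the other mitochondrial strand, with 178 ± 23.03 CPM in control MZ and 31.4 ± 1.3 in FO cells (log2 fold change 2.51, SE 0.086; edgeR, adjusted p = 3.1e-11). Per the design text the MZ and FO kits differ, with a stranded kit for FO cells, but the extraction protocol names 1 kit for all, and the counting's strand setting is not known from the sources used here. Cytoplasmic ribosomal protein genes went the same way, with 2 of 54 higher and 52 lower (median log2 −1.59).

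Of the nuclear partners, complex V split into 7 higher and 8 lower of 16 genes, with Atp5d at 169.9 ± 9.31 CPM in control MZ and 91.1 ± 3.86 in FO cells and Atp5k at 14.4 ± 2.35 in control MZ and 49.7 ± 5.94 in FO cells. Of 4 tested chain subunits outside the member list, 1 was higher, Cycs (log2 fold change 0.56, SE 0.076; edgeR, adjusted p = 1.42e-05), and 3 were lower, among them the supercomplex factor Cox7a2l (log2 fold change −1.26, SE 0.057; edgeR, adjusted p = 2.24e-10). Of 47 assembly factors, 24 were higher and 12 lower. For this and the other lists, the shares of all genes tested were 42.6% higher and 38.7% lower. The complex IV factor Cox18, which inserts a mitochondrially made subunit, averaged 27.5 ± 1.35 CPM in control MZ and 10.8 ± 0.736 in FO cells (log2 fold change 1.36, SE 0.080; edgeR, adjusted p = 3.22e-09). Cox20, which acts on that same subunit, averaged 1.55 ± 0.258 CPM in control MZ and 26.4 ± 2.54 in FO cells (log2 fold change −4.08, SE 0.13; edgeR, adjusted p = 1.06e-11). In the tricarboxylic acid cycle 7 of 16 genes were higher and 3 lower, with Idh3a (log2 fold change 0.77, SE 0.066; edgeR, adjusted p = 1.39e-07) and Dlat (log2 fold change 0.84, SE 0.075; edgeR, adjusted p = 2.06e-07) higher and Pdha1 lower (log2 fold change −0.66, SE 0.054; edgeR, adjusted p = 8.84e-08).

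Regulators of mitochondrial biogenesis numbered 5 higher and 7 lower of 20, where 81.3% of all genes tested were called. The 4 with the smallest p were all lower in control MZ cells. Sp1 averaged 42.2 ± 2.28 CPM in control MZ and 348 ± 9.6 in FO cells (log2 fold change −3.03, SE 0.055; edgeR, adjusted p = 6.38e-14), and Yy1 19.5 ± 1.99 in control MZ and 94.8 ± 4.67 in FO cells (log2 fold change −2.27, SE 0.071; edgeR, adjusted p = 7.3e-12). Creb1 (log2 fold change −1.77, SE 0.064; edgeR, adjusted p = 2.66e-11) and Gabpa, which encodes the DNA-binding part of nuclear respiratory factor 2 (log2 fold change −1.01, SE 0.049; edgeR, adjusted p = 4.56e-10), were lower as well. Of 8 B cell markers, 5 were higher and 3 lower, and Pax5 had a median of 44.8 CPM in control MZ and 267 in FO libraries. For these genes too, cell type cannot be told apart from genotype or, per the design text, from kit and read layout. The summed platelet markers were 11.8 to 18.7 CPM in control MZ and 3.31 to 4.19 in FO libraries, with 5 of 5 higher, and those of macrophages and monocytes 27.01 to 32.3 in control MZ and 15.4 to 35.2 in FO libraries, with 6 of 8 higher and 1 lower. Their part in the members' levels was not tested.

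Promoters of respiratory chain genes are known to hold sites for nuclear respiratory factor 1 (NRF1), for ETS factors such as Gabpa, and for YY1. RefSeq promoter windows, from 250 bases before to 50 after the start (GRCm38.p6), were matched for 49 members, with 51 windows in all. They were searched on both strands for CGCATGCG (NRF1), CCGGAAG (ETS) and AAGATGGC (YY1), which do not contain one another. CGCATGCG was in 9.80% of member windows and 1.87% of all 32851 windows, CCGGAAG in 21.6% and 8.86%, and AAGATGGC in 13.7% and 2.75%. At least 1 of the 3 was in 41.2% of member windows and 12.6% of all windows. The latter were not limited to genes tested here, whereas all members were tested, so the sets are unlike. By call, 12 of 24 members higher in control MZ cells held a motif, as did 5 of 10 lower ones and 4 of 15 not called. A pair of windows is printed to show this, from a complex IV gene that was higher in control MZ cells and a complex I gene that was lower, with motif letters in capitals.
Cox6a1, chr5:115348909-115349208, minus strand: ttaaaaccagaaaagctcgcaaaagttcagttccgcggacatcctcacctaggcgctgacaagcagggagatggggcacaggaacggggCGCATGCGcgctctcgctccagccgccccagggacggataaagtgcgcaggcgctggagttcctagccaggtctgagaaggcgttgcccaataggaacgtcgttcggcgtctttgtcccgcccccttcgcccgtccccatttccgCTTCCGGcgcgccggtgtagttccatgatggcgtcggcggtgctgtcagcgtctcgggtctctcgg
Ndufb7, chr8:83566508-83566807, plus strand: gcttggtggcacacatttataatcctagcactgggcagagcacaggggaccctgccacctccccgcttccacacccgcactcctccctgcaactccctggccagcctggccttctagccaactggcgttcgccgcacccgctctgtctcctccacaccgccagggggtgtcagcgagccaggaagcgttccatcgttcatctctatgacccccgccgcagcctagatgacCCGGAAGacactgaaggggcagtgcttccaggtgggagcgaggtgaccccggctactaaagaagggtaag
The Cox6a1 window holds the NRF1 letters and the ETS letters (on the other strand, as CTTCCGG), and the Ndufb7 window the ETS letters. The windows of Cox7a2 and Ndufs5 hold none of the 3 motifs, which says only that these letters are not in this window. Cox4i1, Cox6c, Cyc1, Ndufa2, Ndufb9, Ndufs1, Sdhc, Uqcrb, Uqcrc2 and Uqcrq had no entry.

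Deficient MZ cells were also set against FO cells. This comparison shares its deficient libraries with the comparison to control MZ cells and its FO libraries with the one before, so only its own values are given. Loss of Zfp36l1 and the cre genotype differ along with the cell type, as do the kit and the read layout per the design text. Their parts cannot be told apart. Of the 59 members, 41 were higher in deficient MZ cells, 4 were lower and 14 were not called, against 81.1% called among 13895 genes tested, 42.8% higher and 38.3% lower. The median log2 fold change was 0.33 for the members and 0.064 for all genes. With offsets for transcript length the split was 29 higher and 19 lower, and the median 0.14. Without deficient replicate 1 it was 35 higher and 8 lower, with a median of 0.21. Ndufb9 (1.47, SE 0.11), Ndufc1 (1.29, SE 0.12), Uqcrfs1 (1.13, SE 0.068), Ndufa10 (1.06, SE 0.063) and Ndufv2 (1.06, SE 0.072) had the largest log2 fold changes (edgeR adjusted p at most 2.3e-07). The 4 lower members were Uqcrh (−1.01, SE 0.10), Ndufb6 (−0.54, SE 0.13), Ndufa3 (−0.42, SE 0.10) and Ndufb7 (−0.26, SE 0.091), with edgeR adjusted p at most 0.0193. The call of Ndufb7 was lost without deficient replicate 7.

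Side by side, Cox7a2 had 95.8, 70.7, 67.5 and 73.9 CPM in deficient MZ libraries, 52.3, 51.2, 60.9 and 43.2 in control MZ libraries and 66.8, 67.4, 59.5 and 57.8 in FO libraries. It was higher in deficient MZ than in FO cells (log2 fold change 0.32, SE 0.10; edgeR, adjusted p = 0.0107) and lower in control MZ cells than in FO cells (log2 fold change −0.27, SE 0.091; edgeR, adjusted p = 0.0167). Of complex II, all 4 genes were higher in deficient MZ than in FO cells, from Sdhc (log2 fold change 0.22, SE 0.087; edgeR, adjusted p = 0.0304) to Sdhb (log2 fold change 0.88, SE 0.078; edgeR, adjusted p = 2.05e-07), with Sdha (0.41, SE 0.056) and Sdhd (0.87, SE 0.070) between them. The call of Sdhc was lost without FO replicate 4, 7 or 8 or deficient replicate 1 or 8, and also with the DESeq2 test, with no filter on low counts, with a replicate block and with offsets for transcript length. Cyc1 (1.04, SE 0.079), Cox4i1 (0.44, SE 0.097) and Ndufa4 (0.44, SE 0.12) were higher too on the log2 scale (edgeR adjusted p at most 0.00379). With offsets for transcript length, the log2 fold change of Cox4i1 was 0.065 and its call was lost.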

How the data were processed

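RNA-seq of 12 libraries was analysed from the raw counts per gene that the authors deposited. The build was GRCm38, and the tools TopHat2 2.0.12, Trim Galore, DESeq2 1.10.1 and HTSeq, per the submitters' processing notes. The sources used here do not state annotation release, strand setting or counting mode. The log2 fold changes and adjusted p-values of the authors' deposited tables come from their own tests. Depth was 28938453 to 40664963 counts per library. No identical columns were found (0), and all replicate pairs exceeded sampling noise, at a chi-square of 5.80 to 48.9 per gene.

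Counts were tested with edgeR 4.0.16 (R 4.3.3): TMM scaling, the default filter by group, a robust quasi-likelihood fit taken over from earlier work on these data, and Benjamini-Hochberg adjustment over all genes, with calls at an adjusted p under 0.05. Fits used only the 8 libraries compared, since the design text names different kits for MZ and FO cells, although the extraction protocol names 1 for all. The step was also run on simulated counts, with an outcome that is not given here. Those counts held no shift shared by many genes of a library, such as that of deficient replicate 1. DESeq2 1.42.0 was an alternative, as were other scalings, filters, length offsets, a replicate block and leaving out each library. Exon and 3′ UTR lengths and coordinates came from the GENCODE M21 basic set (GRCm38), which matched 42548 of 43629 gene IDs. Near copies share at least 95% identity over at least 100 bases with a transcript of another gene (BLAST 2.17.0). Of 59 members, 17 have one, and in 7 over 10% of exon bases lie under the other strand. Those with a near copy are Ndufa12, Ndufab1, Ndufb3, Ndufb4, Ndufb11, Ndufc1, Ndufs3, Ndufs5, Ndufs6, Ndufv3, Uqcrb, Uqcr10, Uqcr11, Cox5b, Cox6c, Cox7b and Cox7c. How their reads were shared is uncertain.

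Members and the 13 lists (225 symbols, 4 unmatched) were chosen with earlier results of these data known. Named members were, for deficient against control MZ cells, all called ones and the smallest p up to 20, for control MZ against FO cells the 10 largest called changes each way, and for deficient MZ against FO cells the 5 largest each way. To these were added the complex II genes, Uqcrfs1, Cyc1, Cox4i1, Ndufa4, Zfp36l1 and Lyrm7, and up to 4 called genes per list. Other members were named for a count or a sequence after their values were seen.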

Additional observations from a re-analysis of the deposited data

Results flagged for a closer look

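Of 120 groups of 4 libraries tested over the named members and the complex sums, 5 held a library far from the other 3 by Dixon's gap over range, and chance gives about 1 in 20 such groups. Deficient MZ replicate 1 stood apart for Uqcrh at 112.7 CPM and for Ndufc2 at 68.8 CPM. Control MZ replicate 5 stood apart for Cox4i1 at 241 CPM, for Ndufs4 at 50.4 CPM and for the summed level of complex III at 914 CPM. In all 5 cases the library was the highest of its group. The causes were not tested.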

How the results depend on the processing

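In deficient against control MZ cells, 526 genes were called, against 1049 with the DESeq2 test, 790 with all 12 libraries in 1 fit and 257 to 506 when 1 library was left out (309 without control replicate 3, 257 without control replicate 4, 311 without control replicate 6 and 299 without deficient replicate 8). Called members were 3, against 5 with the DESeq2 test and 1 to 5 when 1 library was left out. The adjusted p of Uqcrq was 0.130 with no filter on low counts. Against FO cells, the members' median log2 fold change in deficient MZ cells was 0.142 with length offsets, and Cox4i1 in control MZ cells reversed to −0.017 with the call lost. With a TPM-like level the log2 ratios of the complex sums in control MZ over FO cells were 0.27 for complex I, 0.79 for complex II and 0.38 for complex IV, and in deficient MZ over FO cells 0.76 for complex II and 0.60 for complex IV. Causes were not tested. Samples shared only a replicate number: deviations of same-numbered libraries correlated at −0.038 and −0.074 (control MZ and FO) and at 0.086 and 0.043 (deficient MZ and FO). With the replicate block on those libraries, 25 members were higher and 13 lower for control MZ against FO cells (10204 genes called), and 37 higher and 5 lower for deficient MZ against FO cells (11323 genes). Deficient and control MZ cells share no replicate number.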
